A study of Mus musculus with 12 samples.

Results

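The genes described here encode 10 secreted or cell-surface proteins that mark cartilage: cartilage oligomeric matrix protein (Comp), the matrilins (Matn1, Matn2, Matn3 and Matn4), cartilage intermediate layer proteins (Cilp and Cilp2) and 3 small chondrocyte proteins (Ucma, Snorc and Cnmd). They were picked by symbol, and each matched 1 Ensembl ID among the 57010 IDs of the count files. All 10 passed the filter on low counts, with 14253 genes tested in all. Cilp passed it only through its Control libraries. The 12 poly(A) RNA libraries, 4 in each of 3 groups, came from mouse primary chondrocytes, the cells that build and maintain cartilage matrix. All 12 carry the genotype label wild type. The groups are Control, WT (cells transfected with the plasmid labelled Wildtype) and SIRT5F101L (cells given the SIRT5F101L mutant plasmid, where SIRT5 is a mitochondrial enzyme that removes acyl groups such as malonyl from lysines). Which gene the Wildtype plasmid carries, what the Control cells received, the age and joint of the animals, and the time after transfection are not given in the sources used here. Nothing states that libraries of a group came from separate cultures or animals, so the p-values measure the spread between these libraries, which may be technical. Replicate numbers follow accession order within a group and only name libraries.

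COMP is a pentameric thrombospondin that binds collagen fibrils and matrilins, and the matrilins are adaptor proteins built from von Willebrand factor A domains that link collagen fibrils to aggrecan and to each other. Mutations in COMP or MATN3 can cause multiple epiphyseal dysplasia, a growth disorder of cartilage, and COMP fragments in blood are followed as a marker of cartilage turnover in osteoarthritis. CILP is deposited in the middle layers of articular cartilage and can bind growth factors, UCMA is a small protein rich in gamma-carboxylated glutamate, SNORC is a small transmembrane proteoglycan of chondrocytes, and chondromodulin (Cnmd) inhibits blood vessel growth into cartilage.

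The libraries held 15095357 to 24242139 counts, so that 1 count was worth 0.0413 to 0.0662 CPM, the unit of counts relative to library size, before scaling. CPM values below are scaled by TMM, which corrects for differences in RNA composition between libraries, and n = 4 for every mean ± SD. The mRNA of Sirt5 itself was near the floor of detection, with 9 to 16 counts per library in Control, 1 to 9 in WT and 9 to 19 in SIRT5F101L, and no rise was detectable in cells labelled with either plasmid (log2 fold changes of -0.86 and 0.03, edgeR adjusted p 0.143 and 0.954). Since 45.4% of the longest Sirt5 transcript recurs in other genes at 95% identity or more, its counts are uncertain. They are also those of the mouse gene, and the sequence of the plasmid inserts is not given in the sources used here. These counts therefore do not show whether the plasmids were expressed. The chondrocyte identity genes Col2a1, Acan, Sox9, Col9a1 and Hapln1 were all detected in every group, with a summed level of 6112 to 7662 CPM in Control, 2018 to 2146 in WT and 1581 to 1799 in SIRT5F101L. Most of that sum was Col2a1 (means of 6719, 1665 and 1312 CPM), and the list itself was mixed: Col2a1, Col9a1 and Sox9 were called lower in both plasmid groups, Hapln1 was called higher in both, and Acan was called higher in WT and not called in SIRT5F101L, with median log2 fold changes of -0.20 and -0.34. Fibroblast markers were also high in Control (29902 to 35802 CPM summed over 6 genes), and 5 of the 6 were lower in both plasmid groups (9679 to 11090 CPM in WT, 9340 to 10723 in SIRT5F101L), while the sixth, Pdgfra, was called higher in both. Beside these counts, 28.1% of all tested genes were called lower and 28.7% higher in WT, and 30.7% and 30% in SIRT5F101L. All 6 macrophage markers were lower too, at a summed 157 to 192 CPM in Control, 81.8 to 94.7 in WT and 82.6 to 105 in SIRT5F101L. The 4 endothelial markers did not pass the test in either comparison and summed to 3.50 to 4.53 CPM in Control, 2.60 to 3.75 in WT and 2.93 to 3.91 in SIRT5F101L. Of 4 osteoblast markers, Ibsp and Sp7 were lower in both plasmid groups, and the sum was 17.0 to 23.8 CPM in Control, 4.11 to 4.64 in WT and 3.51 to 5.17 in SIRT5F101L. The tendon markers Scx and Tnmd were listed at 0 throughout. Mkx was higher in both plasmid groups (18.96 to 21.3 CPM in Control, 22.1 to 27.7 in WT and 22.6 to 26.8 in SIRT5F101L). Erythroid markers summed to at most 0.765 CPM in any library. Tnmd and the erythroid marker Alas2 lie on chromosome X, where every ID had 0 counts, so their 0 says nothing about cell types. Here and below, whether a 0 in all libraries means no mRNA or a gene left out of counting was not tested. In skeletal muscle markers 1 of 4 genes was tested, Acta1, which was lower in both plasmid groups, and the sum was at most 6.55 CPM. In such bulk samples fewer cells of a type and less RNA per cell cannot be told apart, and the part of these marker changes in the results below was not tested.

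In Control, Comp was by far the most abundant of the 10. Levels are compared between genes only as CPM per kb of the longest coding transcript. On this scale Comp averaged 846 ± 96.9 CPM per kb, rank 70 of the 14080 tested genes with a known length, followed by Cnmd at 77.4 ± 3.47 and Ucma at 46.7 ± 4.0. Matn2 (15.1 ± 0.517), Matn3 (14.8 ± 0.484) and Matn4 (13.5 ± 1.51 CPM per kb) came next, and neighbours in this order overlapped between libraries. Cilp2 (7.05 ± 0.603) and Snorc (5.80 ± 0.493) overlapped as well, and Cilp (3.43 ± 0.161) and Matn1 (1.08 ± 0.488 CPM per kb) were lowest. Comp made up 82.0% ± 1.26 of the sum over the 10 genes, and the 10 genes together 0.199% to 0.246% of a Control library's counts. Matn2, Matn3 and Matn4 were thus at similar levels per length, while Matn1, the first matrilin described in cartilage, had only 18 to 62 counts per Control library.

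Promoters of 4 members with steep falls (Cnmd, Cilp, Matn3 and Ucma) and of 1 with a moderate fall (Cilp2, the relative of Cilp) are printed because members with like changes could be compared for short sequence motifs. They are the 250 bases before the RefSeq start site (GRCm38.p6), written 5′ to 3′ on the strand RefSeq gives for the gene, and 7 of the 10 genes have an entry. For the 5 printed, bases after the start matched a GENCODE M21 transcript of the gene in the same orientation. Capitals mark matches to 5 motifs: the SOX core ACAAT, the AP-1 site TGANTCA, the RUNX core TGTGGT and the NF-kB consensus, each on both strands, and the TATA box TATAAA on the gene's own strand.
Cnmd, chr14:79662184-79662433, minus strand: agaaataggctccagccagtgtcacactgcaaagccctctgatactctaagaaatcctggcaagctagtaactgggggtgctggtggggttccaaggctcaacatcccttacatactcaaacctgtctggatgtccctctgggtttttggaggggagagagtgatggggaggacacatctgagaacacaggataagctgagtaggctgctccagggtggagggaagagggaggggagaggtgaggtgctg
Cilp, chr9:65264930-65265179, plus strand: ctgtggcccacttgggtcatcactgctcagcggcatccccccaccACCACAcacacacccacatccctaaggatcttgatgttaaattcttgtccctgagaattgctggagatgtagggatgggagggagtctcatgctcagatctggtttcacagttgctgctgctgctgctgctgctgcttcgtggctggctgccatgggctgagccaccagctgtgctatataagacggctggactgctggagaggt
Matn3, chr12:8947679-8947928, plus strand: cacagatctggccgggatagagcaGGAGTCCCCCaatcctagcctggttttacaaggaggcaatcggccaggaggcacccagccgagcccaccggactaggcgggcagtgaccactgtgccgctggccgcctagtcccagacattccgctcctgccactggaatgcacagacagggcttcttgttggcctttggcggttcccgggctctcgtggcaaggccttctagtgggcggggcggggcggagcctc
Ucma, chr2:4975872-4976121, plus strand: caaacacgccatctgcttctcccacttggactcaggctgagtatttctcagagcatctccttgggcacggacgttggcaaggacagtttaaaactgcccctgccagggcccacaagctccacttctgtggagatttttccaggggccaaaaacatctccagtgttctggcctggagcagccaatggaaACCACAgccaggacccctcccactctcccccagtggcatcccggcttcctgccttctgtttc
Cilp2, chr8:69887393-69887642, minus strand: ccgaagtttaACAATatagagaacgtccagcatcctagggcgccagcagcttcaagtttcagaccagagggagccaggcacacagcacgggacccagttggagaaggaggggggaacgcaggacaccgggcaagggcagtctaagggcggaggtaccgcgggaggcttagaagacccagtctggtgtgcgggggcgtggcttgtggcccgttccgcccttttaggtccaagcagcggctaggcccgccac

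Cnmd held no match to any of the 5 motifs in this window. Cilp and Ucma each held 1 RUNX core, 205 and 62 bases before the start, Matn3 held 1 NF-kB match at 226 bases and Cilp2 held 1 SOX core at 240 bases. Of the members with an entry but not printed, Matn1 held a RUNX core at 134 bases, and Matn4, which has entries for a pair of start sites, held an NF-kB match at 70 bases before the second, whose orientation could not be checked in this way. No match to the AP-1 letters or to the exact letters TATAAA was found in the 8 windows. Near forms of the TATA box were not searched, and the printed Cilp window holds the letters tatataag close to the start site. Among all 32851 promoter windows of the same length, 27.7% held the SOX core, 6.75% the AP-1 site, 14.0% the RUNX core, 3.90% the NF-kB consensus and 7.59% the TATA box. No motif was shared by all 4 of the members with steep falls printed here, and a match is a description of letters, not of a bound site.

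The WT group was compared with Control for the mRNA of the 10 genes. As what the Control cells received is not given, an effect of the plasmid cannot be told apart from one of transfection. All 10 genes were lower in WT, by 2.36-fold (Matn4) to 48.2-fold (Cilp). Cilp, which passed the filter only through Control, could only be found lower, and the next largest fall was 43.3-fold (Cnmd). Genes were tested by edgeR's quasi-likelihood fit of all 12 libraries, and called at a Benjamini-Hochberg adjusted p under 0.05 over all genes tested. All 10 were called lower and at least 2-fold lower, where 56.8% of all tested genes were called in either direction, 28.1% were called lower and 7.56% were called at least 2-fold lower. The median log2 fold change was -2.52 over the 10 genes and -0.01 over all tested genes. In 9 of the 10 every WT library was below every Control library, as in 26.5% of all genes, and the exception was Matn1.

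In SIRT5F101L, compared with the same Control libraries, all 10 genes were lower too, from 2.37-fold (Matn2) to 50.5-fold (Cilp). Here too Cilp could only be found lower, and the next largest fall was 42.9-fold (Cnmd). All 10 were called and at least 2-fold lower by edgeR, beside 60.7% of all tested genes called in either direction, 30.7% called lower and 7.67% at least 2-fold lower. The median log2 fold change was -3.11 over the 10 genes and -0.02 over all. All 10 were lower without overlap between SIRT5F101L and Control, as were 25.7% of all genes. The 2 comparisons share their Control libraries, so the values for each gene are given side by side and are not independent of each other.

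**Figure D1:**
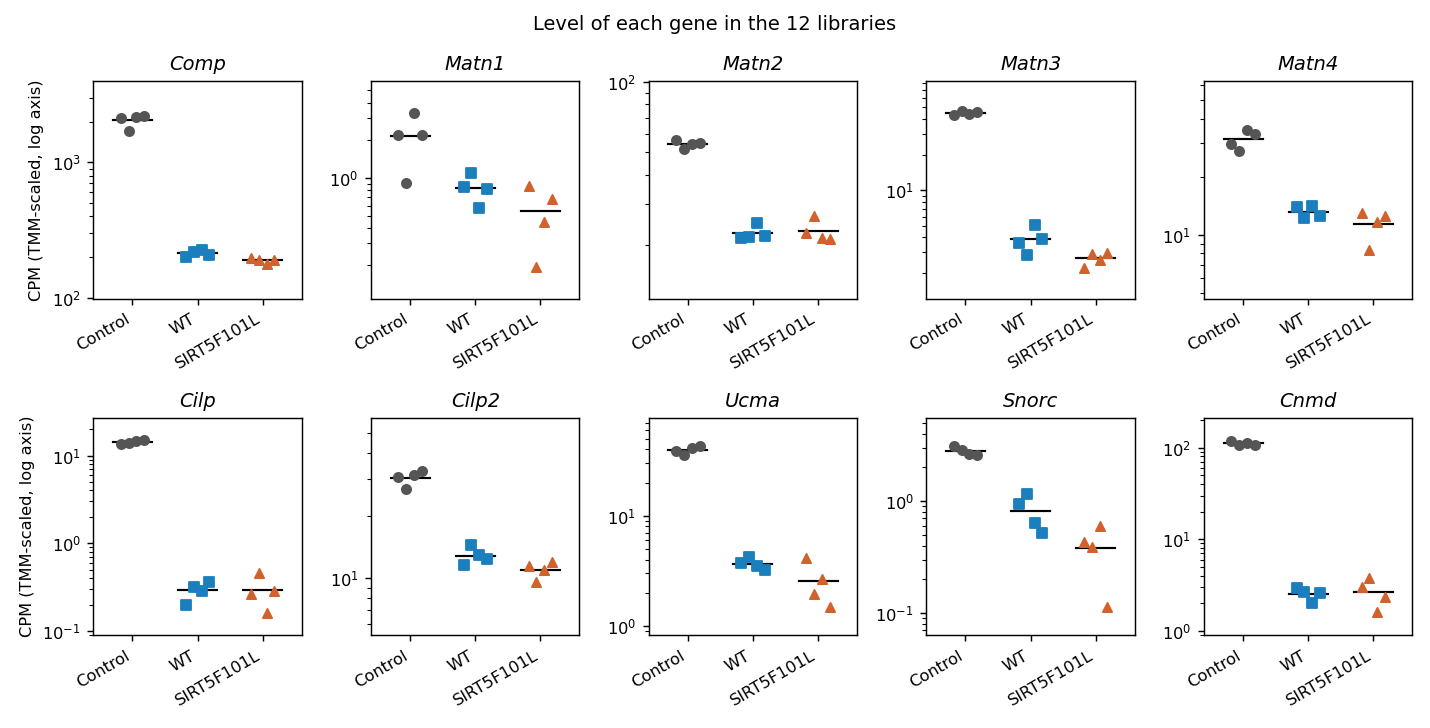
TMM-scaled CPM (log axis, a separate range for each gene) of the 10 genes in the 12 libraries, with points for libraries and lines for group means of 4 libraries. The Control points lie above every plasmid point for all genes but Matn1, where Control replicate 2, at 0.913 CPM, lies among the WT libraries at 0.578 to 1.09 CPM.

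Comp (ENSMUSG00000031849), the pentameric fibril-binding glycoprotein, fell steeply in both plasmid groups. It stood at 2122, 1697, 2144 and 2212 CPM in Control, at 202, 217, 226 and 206 CPM in WT, and at 197, 191, 177 and 191 CPM in SIRT5F101L. Every Control library lay far above every plasmid library, and the plasmid groups lay close together without overlap. Its WT mean was 10.4% and its SIRT5F101L mean 9.25% of the Control mean, with log2 fold changes of -3.26 (SE 0.08) and -3.44 (SE 0.08; edgeR adjusted p 1.28e-17 and 5.77e-18). Even so Comp remained the highest of the 10 per length, at 88.1 ± 4.52 CPM per kb in WT (rank 763) and 78.2 ± 3.39 in SIRT5F101L (rank 819 of 14080).

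Of the other thrombospondins, which share the carboxy-terminal part of COMP and bind cells and matrix, Thbs1, Thbs2 and Thbs4 were tested, all 3 were called lower in both plasmid groups, and Thbs3 was listed at 0 in all libraries. Of all tested genes 28.1% were called lower in WT and 30.7% in SIRT5F101L. Thbs2 fell by log2 1.87 in WT and 1.74 in SIRT5F101L, from 941 ± 60.3 CPM in Control to 257 ± 10.7 and 282 ± 7.28. Thbs1 fell from 16557 ± 1449 to 6542 ± 574 and 6579 ± 593 CPM (log2 fold changes of -1.34 and -1.33). The median over the 3 was -1.34 in WT and -1.33 in SIRT5F101L, beside -3.26 and -3.44 for Comp, a difference that was not tested.

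The matrilins split into 1 gene with a steep fall and 3 with a moderate one. Matn3 (ENSMUSG00000020583), whose mutant forms cause epiphyseal dysplasia, was at 43.3, 46.3, 43.6 and 45.6 CPM in Control. It was at 3.60, 2.82, 5.14 and 3.86 CPM in WT and at 2.19, 2.92, 2.61 and 2.95 CPM in SIRT5F101L. All plasmid libraries lay far below Control, and WT replicate 2 lay within the SIRT5F101L range. The log2 fold changes were -3.53 (SE 0.13) and -4.07 (SE 0.13; edgeR adjusted p 3.33e-15 and 7.32e-16), an 11.5-fold and a 16.8-fold fall.

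Matn2 (ENSMUSG00000022324), a matrilin found well beyond cartilage, was at 56.0, 51.6, 54.3 and 54.7 CPM in Control. It stood at 21.3, 21.6, 24.9 and 21.8 CPM in WT and at 22.5, 26.4, 21.4 and 21.1 CPM in SIRT5F101L. The plasmid groups overlapped and held 41.4% and 42.2% of the Control mean, with log2 fold changes of -1.27 and -1.25 (SE 0.08 each). Antisense exons of another gene cover 1.12% of Matn2's exon sequence, and the library kit as named in the labels does not show whether strand was kept.

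Matn4 (ENSMUSG00000016995), which joins the other matrilins in cartilage and is also made elsewhere, was at 29.5, 27.2, 34.8 and 33.3 CPM in Control. It was at 13.9, 12.2, 14.1 and 12.6 CPM in WT and at 13.0, 8.38, 11.6 and 12.5 CPM in SIRT5F101L. Both plasmid groups were below every Control library, with SIRT5F101L replicate 2 the lowest of all. Matn4's log2 fold changes were -1.24 and -1.45 (SE 0.12 each), and 2.88% of its exon sequence overlaps Rbpjl on the opposite strand.

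Matn1 (ENSMUSG00000040533), cartilage matrix protein, had 38, 18, 62 and 40 counts in Control, 17, 17, 10 and 16 in WT and 16, 3, 11 and 12 in SIRT5F101L. Control replicate 2 was the lowest Control library and, at 0.913 CPM, overlapped WT. The log2 fold changes were -1.37 (SE 0.39) in WT and -1.96 (SE 0.41) in SIRT5F101L, with edgeR adjusted p of 0.00528 and 0.000345. From summed counts alone Control was 2.58 times WT (95% interval 1.91 to 3.54, for counting error only) and 3.90 times SIRT5F101L (2.76 to 5.62).

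The unequal falls changed the makeup of matrilin mRNA. Summed per kb, the 4 matrilins went from 44.6 ± 2.01 CPM per kb in Control to 13.7 ± 0.983 in WT and 12.5 ± 0.487 in SIRT5F101L. Matn3 made up 33.3% ± 2.28 of that sum in Control, 9.27% ± 1.68 in WT and 7.11% ± 1.10 in SIRT5F101L, without overlap between Control and either plasmid group. Matn2 went from 34.0% ± 1.27 to 45.8% ± 1.40 and 51.3% ± 6.65, the last with 1 library, replicate 2, at 61.1% and the others at 46.6% to 49.5%. Matn4 went from 30.3% ± 2.07 to 41.8% ± 1.66 and 39.5% ± 6.30, where SIRT5F101L replicate 2, at 30.1%, lay within the Control range of 28.1% to 32.6% and the other 3 at 41.6% to 43.2%. Matn1 stayed at 0.805% to 4.25% in every library. A rise in share here is not a rise in level, since every matrilin fell, and the shares depend on the annotated transcript lengths, as no isoform was measured.

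**Figure D2:**
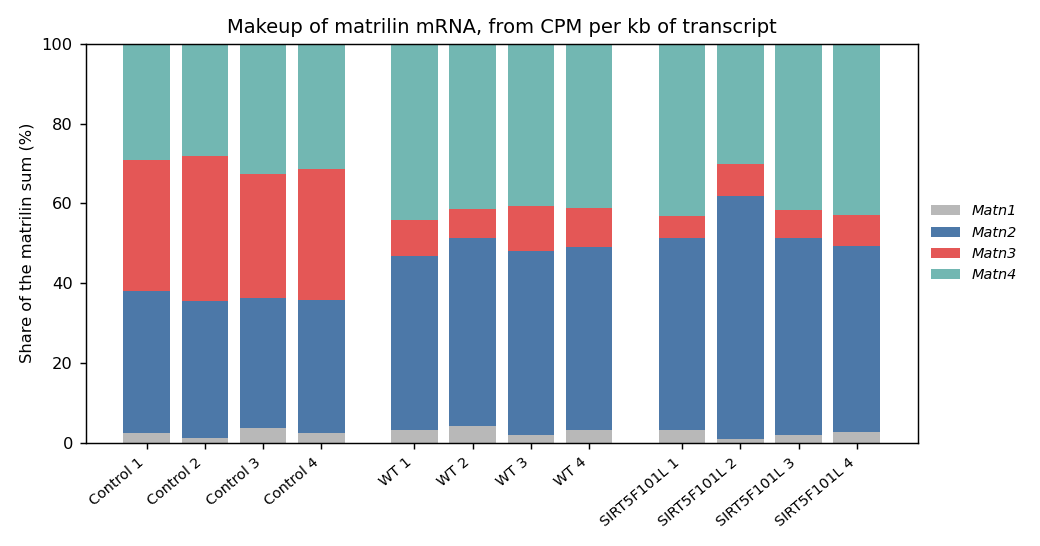
Share of each matrilin in the sum of the 4, in percent, from CPM per kb in each of the 12 libraries (1 stacked bar per library, numbered within its group). The Matn3 segment takes 31.1% to 36.5% in Control and 5.55% to 11.3% in the plasmid libraries.

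The CILP genes parted in the same way. Cilp (ENSMUSG00000042254), made by cells of the middle cartilage layers, had 235, 271, 276 and 274 counts in Control, 4, 5, 5 and 7 in WT and 5, 7, 4 and 5 in SIRT5F101L. Every plasmid library lay just above the floor of 3 counts under which values have no order. Mean CPM was 14.3 ± 0.668, 0.292 ± 0.0693 and 0.292 ± 0.122 in the 3 groups, and the fits gave -5.59 and -5.66 (log2, SE 0.21 each; edgeR adjusted p 9.66e-15 and 7.84e-15). Since each plasmid group summed to only 21 counts, the size is loose: the ratio of Control to WT was 49.3 (95% interval 32.1 to 80.03, counting error only) and that of Control to SIRT5F101L 52.1 (33.9 to 84.5).

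Cilp2 (ENSMUSG00000044006), its close relative, kept far more. It was at 30.8, 26.8, 31.3 and 32.9 CPM in Control, at 11.6, 14.4, 13.0 and 12.4 CPM in WT, and at 11.4, 9.55, 10.9 and 11.96 CPM in SIRT5F101L. WT held 42.3% and SIRT5F101L 36.1% of the Control mean, and the plasmid groups overlapped. The log2 fold changes were -1.25 (SE 0.10) and -1.47 (SE 0.10; edgeR adjusted p 9.68e-10 and 8.22e-11). Cilp2 lies on chromosome 8, as does Comp, with 19 tested genes between them in the GENCODE M21 order. Of those 19, 7 were called lower and 3 higher in WT, and 8 lower and 3 higher in SIRT5F101L, with median log2 fold changes of -0.25 and -0.17. Over all tested genes 28.1% were called lower and 28.7% higher in WT, and 30.7% and 30% in SIRT5F101L.

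Of the small chondrocyte proteins, Cnmd (ENSMUSG00000022025), the inhibitor of vessel growth, changed most. It was at 118, 108, 112 and 107 CPM in Control, at 2.91, 2.63, 2.02 and 2.62 CPM in WT, and at 2.99, 3.77, 1.60 and 2.32 CPM in SIRT5F101L. The plasmid groups overlapped and held 2.30% and 2.41% of the Control mean. The log2 fold changes were -5.43 and -5.42 (SE 0.14 each; edgeR adjusted p 3.95e-17 and 3.15e-17), and with 35 to 59 counts per plasmid library this fall was better measured than that of Cilp. Per length, Cnmd went from the second of the 10 genes to the sixth in both plasmid groups. Its libraries there overlapped those of Snorc, the next gene, in WT and those of Cilp2, the gene before, in SIRT5F101L. Tenomodulin (Tnmd), its close paralogue, was listed at 0 in all libraries, as were all 3998 IDs that GENCODE M21 places on chromosomes X and Y or the mitochondrial genome.

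Ucma (ENSMUSG00000026668), a secreted product of unmineralized cartilage, was at 38.5, 35.4, 41.3 and 43.2 CPM in Control. It was at 3.75, 4.23, 3.52 and 3.19 CPM in WT and at 4.17, 1.95, 2.65 and 1.47 CPM in SIRT5F101L. SIRT5F101L replicate 1 lay among the WT libraries, and the 3 others lay below all of them. Against Control the log2 fold changes were -3.43 (SE 0.17) and -3.93 (SE 0.18; edgeR adjusted p 7.41e-13 and 1.58e-13).

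Snorc (ENSMUSG00000026258), the chondrocyte membrane proteoglycan, had 53, 56, 49 and 47 counts in Control, 19, 18, 11 and 10 in WT and 8, 6, 15 and 2 in SIRT5F101L. All plasmid libraries were below Control. Snorc's log2 fold changes were -1.78 (SE 0.32) and -2.78 (SE 0.35; edgeR adjusted p 9.23e-05 and 1.13e-06). From summed counts Control was 3.47 times WT (95% interval 2.58 to 4.72, counting error only) and 6.85 times SIRT5F101L (4.68 to 10.3).

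**Figure D3:**
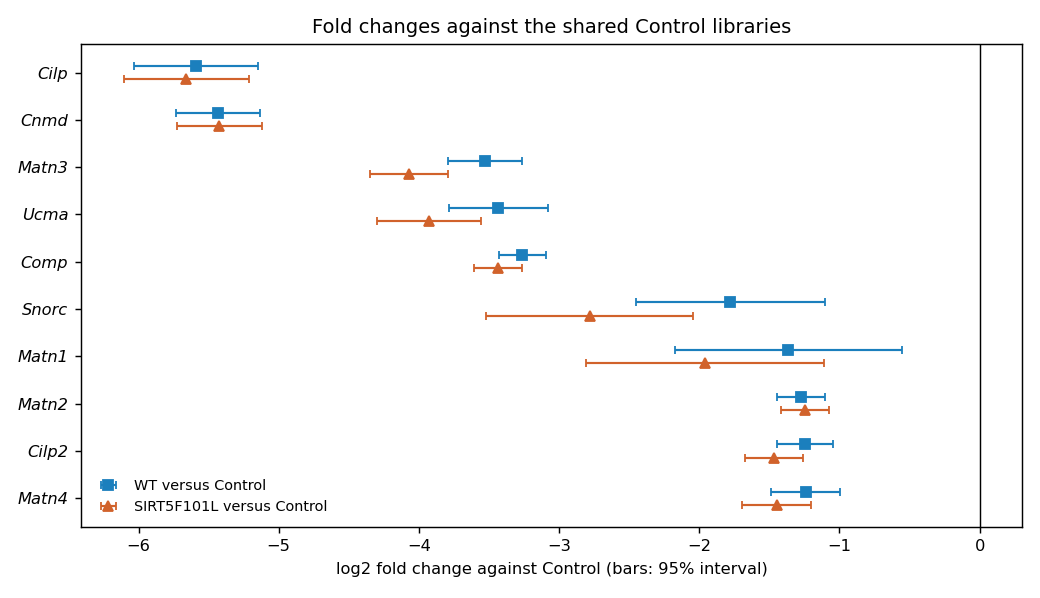
Log2 fold changes of the 10 genes in WT and SIRT5F101L against the shared Control libraries, with 95% intervals from edgeR's fit. Cilp and Cnmd lie between -5.66 and -5.42, Matn3, Ucma and Comp between -4.07 and -3.26, and the other 5 genes between -2.78 and -1.24.

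The mutant was then set against the wild-type plasmid. None of the 10 genes was called by edgeR, while 0.0421% of all tested genes (6) were, 0.014% lower and 0.0281% higher. At an unadjusted p under 0.05 stood 5 of the 10 (Comp, Matn3, Cilp2, Ucma and Snorc), all lower in SIRT5F101L, beside 11.9% of all genes, and 4 of the 10 by DESeq2, beside 11.5% of all genes by that tool. The estimate was below 0 for 8 of the 10 genes, with a median log2 fold change of -0.21, against -4.84e-05 over all genes. Comp was the only member whose groups did not overlap, lower in SIRT5F101L, as in 2.03% of all genes.

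The intervals show how large a difference these libraries allow. For Comp the log2 fold change between the plasmids was -0.17 (95% interval -0.33 to -0.02, edgeR adjusted p 0.390), and for Matn2 it was 0.03 (-0.15 to 0.20, adjusted p 0.927). Matn3 was at -0.54 (-0.87 to -0.21, edgeR adjusted p 0.310), with 3.86 ± 0.964 CPM in WT and 2.67 ± 0.353 in SIRT5F101L. Snorc had the lowest estimate, -1.005, and a wide interval (-1.84 to -0.17, edgeR adjusted p 0.371), and Ucma was at -0.50 (-0.94 to -0.05, adjusted p 0.389). Cnmd was at 0.01 (-0.40 to 0.42), Cilp at -0.07 (-0.87 to 0.73), Matn1 at -0.59 (-1.53 to 0.35), Matn4 at -0.21 (-0.46 to 0.05) and Cilp2 at -0.22 (-0.44 to -0.01).

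The call of Ucma depended on 1 library. Without SIRT5F101L replicate 1, 1 of the 10 genes was called, Ucma, at -0.81 (edgeR adjusted p 0.00244), and 2213 of all genes were called. Matn3 was called when genes were kept from 1 count upward (-0.55, edgeR adjusted p 0.0386, with 354 genes called in all). Over its alternatives the adjusted p of Ucma ran to 0.745 and that of Matn3 to 0.732. Leaving out any one of the other libraries of either plasmid group left 0 of the 10 called, with 1 to 5 of them at an unadjusted p under 0.05 by edgeR, beside 6.52% to 15.1% of all genes. Without SIRT5F101L replicate 1 it was 6 of the 10, beside 28.1% of all genes.

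**Figure D4:**
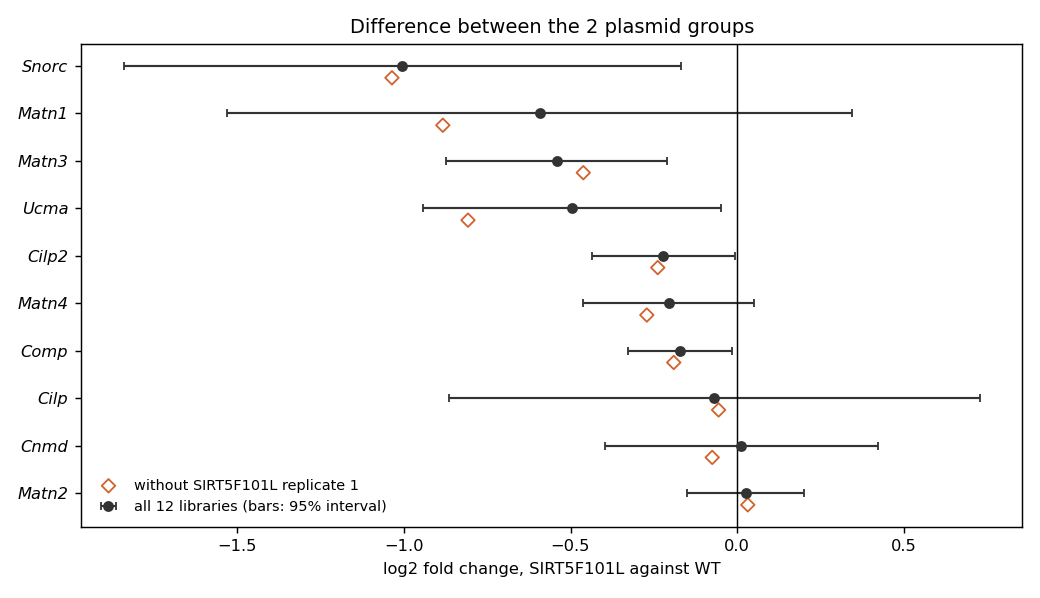
Log2 fold change of SIRT5F101L against WT for the 10 genes, with 95% intervals over all libraries (filled points) and the estimate without SIRT5F101L replicate 1 (open points). Ucma moves from -0.50 to -0.81 and Matn1 from -0.59 to -0.88, while Comp, Cilp2 and Matn2 shift by little.

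Genes of proteins that COMP and the matrilins bind, or that form the network around them, made up the next list. For this list and those that follow, the background is that 28.1% of all tested genes were called lower and 28.7% higher in WT, and 30.7% lower and 30% higher in SIRT5F101L. Of 14 collagen and proteoglycan partners, 13 were tested: 9 were called lower and 4 higher in WT (median log2 fold change -1.18, against -0.01 over all genes), and 9 lower and 3 higher in SIRT5F101L (median -1.32, against -0.02). Over the alternatives, 13 partners were called in WT and 10 to 12 in SIRT5F101L. The partners called lower in the main fit were the type II, IX and XI collagen genes, Col6a1, Col6a2 and fibronectin (Fn1). Col9a1, a chain of the type IX collagen on the surface of cartilage fibrils, went from 84.4 ± 5.39 CPM to 8.90 ± 0.861 and 6.04 ± 0.863 (log2 fold changes of -3.25 and -3.80), and Col11a2, a fibril-core chain, from 173 ± 24.5 to 26.1 ± 1.67 and 16.8 ± 1.35 (-2.73 and -3.36). The partners called higher in WT were Dcn, Hapln1, Acan and Col6a3, and all but Acan were also called higher in SIRT5F101L. Aggrecan (Acan), the main cartilage proteoglycan, stood at 133 CPM in Control, 185 in WT and 143 in SIRT5F101L, and its link protein gene Hapln1 at 82.2, 97.8 and 93.1 CPM. Col11a2 was the only partner called between the plasmids (-0.63, edgeR adjusted p 0.0339, 8.03e-10 to 0.167 over its alternatives), and the call was lost on leaving out any library of either plasmid group but SIRT5F101L replicate 1 (adjusted p 0.0825 to 0.167), with a log2 fold change of -0.66 to -0.58 in those fits. Those 7 fits called 0 partners, while 6 were called without SIRT5F101L replicate 1, 5 without a filter beyond 1 count, 4 by DESeq2 and 4 with the length trend as offset.

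Proteases that can cut these proteins moved in both directions. Of 8 listed, 6 were tested. In each plasmid group 3 were called higher (Mmp3, Mmp13 and Adamts7) and 3 lower (Adamts4, Adamts5 and Adamts12), with median log2 fold changes of 0.59 and 0.72. Of all tested genes 56.8% in WT and 60.7% in SIRT5F101L were called, in near equal parts higher and lower. Mmp3, stromelysin, rose from 16.3 ± 1.55 CPM to 1534 ± 147 and 1882 ± 163, and Mmp13, a collagenase, from 86.4 ± 8.65 to 509 ± 25.1 and 612 ± 38.5. Htra1 was listed at 0 and Mmp9 had at most 11 counts in any library.

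Transcription factors that control cartilage genes changed in both directions. Of 6 chondrogenic transcription factors, 3 were called lower (Sox9, Sox6 and Nkx3-2), 2 higher (Sox5 and Runx3) and Runx2 was not called, in both plasmid groups, with medians of -0.15 and -0.10, where 56.8% and 60.7% of all tested genes were called in either direction. Sox9, the main activator of cartilage matrix genes, went from 142 CPM in Control to 124 in WT and 113 in SIRT5F101L (log2 fold changes of -0.20 and -0.34, edgeR adjusted p 0.0105 and 0.000132). Nkx3-2, a repressor that helps maintain chondrocytes, fell from 5.40 ± 0.763 to 1.96 ± 0.425 CPM in WT (-1.47) and by log2 1.71 in SIRT5F101L. Sox5, a partner of Sox9, rose by 0.72 and 1.09 on the log2 scale.

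A further list held 5 genes tied to vitamin K dependent carboxylation, the pathway that modifies UCMA. Of these 3 were tested: the carboxylase gene Ggcx, and Gas6 and Mgp, whose products are modified by the pathway as UCMA is. All 3 were called lower in both plasmid groups, beside 28.1% and 30.7% of all tested genes called lower. The medians, -1.06 and -1.26, are the values of Mgp and do not measure the enzymes of the pathway. Gas6 went from 1190 ± 90.2 CPM to 348 ± 15.1 and 349 ± 8.49, and matrix Gla protein (Mgp), an inhibitor of cartilage mineralization, from 852 ± 45.9 to 410 ± 54.9 and 355 ± 97.4. Of 5 growth factor genes tied to CILP, 2 were called higher and 3 lower in each group (medians -0.27 and -0.39), beside 28.7% and 30% of all tested genes called higher: Tgfbr1, a TGF-beta receptor, rose by 1.60 and 1.75 on the log2 scale, and Igf1 was lower at -1.22 and -0.99. Of 6 genes that mark cartilage zones, 4 were tested, 2 were called higher in each group (Prg4 and Spp1), and Pth1r was called lower in both, while Mef2c was called lower in WT and not called in SIRT5F101L, against the same shares of all genes. Spp1, osteopontin, rose from 1937 CPM to 14554 and 15440, and Pth1r, the receptor for parathyroid hormone-related peptide, went from 12.9 to 2.98 and 3.66. The hypertrophic collagen Col10a1 was listed at 0 in every library and Ihh had at most 8 counts.

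The profile of each member was set against 9743 other tested genes whose mean reached 5 CPM, by the root-mean-square difference of log2 CPM from the Control mean over the 12 libraries. Nearest to Comp were Mettl7a1 (0.12), H19 (0.13) and Adra1b (0.15), and nearest to Ucma were Col9a1 (0.27), Clec11a (0.33) and H19 (0.39). Cilp and Cnmd shared their first neighbours, Cdsn and Mest, at 0.26 for both from Cilp and at 0.31 and 0.37 from Cnmd. Matn3 lay nearest to Cxcl12 (0.32), Pgm5 (0.33) and Clec11a (0.34), while Matn2 lay nearest to Fbln5 (0.07), Mxra8 (0.10) and Copg2 (0.10). Matn4 and Cilp2 shared Aplp1 as nearest gene (0.11 and 0.07), followed by Vamp5 and Chac1 (0.14 and 0.15) for Matn4 and by Fzd4 and Fzd8 (0.09 and 0.10) for Cilp2. The nearest genes lay at 0.47 for Matn1 (Sdsl, Zfas1 and Nog) and at 0.46 to 0.48 for Snorc (Ifi27l2a, Cybrd1 and Stmn2). Among the members themselves Matn4 and Cilp2 were most alike (0.14), then Matn2 and Cilp2 (0.21), Matn2 and Matn4 (0.26), and Cilp and Cnmd (0.27). Within families the distance was 3.16 between Cilp and Cilp2 and 2.005 between Matn3 and Matn4.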

How the data were processed

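Poly(A) RNA of 12 libraries was sequenced as paired-end reads, per the labels' protocols. The submitters' processing notes name FastQC 0.11.9, HISAT2 2.2.1, HTSeq 2.0.2, DESeq2 1.38.3 and the genome build GRCm39. The authors deposited raw read counts by Ensembl gene ID (whole numbers, not normalized), with the strand setting and annotation release not given in the sources used here. Symbols, transcript lengths and overlaps came from GENCODE M21 (GRCm38), an earlier build, so no gene coordinates are given and the promoters carry their own build.

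Counts were tested with edgeR 4.0.16 in R 4.3.3: TMM scaling, filterByExpr with the groups given, and the quasi-likelihood test on 3 group means (9 residual degrees of freedom). Standard errors are the log2 fold change divided by the square root of F. The 2-sided p-values were adjusted over the 14253 genes tested, with a common dispersion of 0.00844. The log2 CPM of the likeness measure had a prior count of 2. Alternatives were RLE and upper-quartile scaling, filters of 1 count and of a mean of 1 CPM, fits of the 8 libraries compared, DESeq2 1.42.0, a robust prior, a loess trend on transcript length (span 0.5) as an offset, and leaving out each library. Copies were sought with BLAST 2.17.0. No libraries were identical, and within groups the median chi-square was 2.56 to 8.92 times sampling noise. The pipeline was tested on simulated data. The members and lists were chosen with earlier results of these data known. Text names all 10 members, Sirt5, the 2 genes per list with the lowest adjusted p against Control, any list gene called between the plasmids, and the 3 genes nearest to each member; other names complete a count. Levels of Col2a1, Acan, Hapln1, Sox9, Ibsp and Alpl lie outside this rule and were added after their values were seen.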

Additional observations from a re-analysis of the deposited data

Results flagged for a closer look

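Libraries far from the other 3 of their group were sought in the CPM of the 10 genes and Sirt5 in each group, 33 sets of values, where chance gives 1.65 such values; 2 were found. Matn2 in WT replicate 3 was at 24.9 CPM, against 21.3 to 21.8 in the other WT libraries, which leaves it far below every Control library. Sirt5 in SIRT5F101L replicate 2 was at 1.23 CPM (19 counts), against 0.481 to 0.602 in the other 3.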

How the results depend on the processing

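Against Control, the 10 genes were called lower under each alternative in both comparisons: all 320 recomputed values kept their direction and side of the threshold, with a highest adjusted p of 0.0334 and a largest shift of 0.352 on the log2 scale. Genes called in all ranged from 7549 to 8502 in WT and from 8030 to 9179 in SIRT5F101L. Between the plasmids the count of 6 became 354 without a filter beyond 1 count (1 of the 10 members), 2 in the fit of 8 libraries, 44 by DESeq2, 2 with a robust prior and 25 with the length trend as offset. Leaving out a library gave 0 to 2213 genes and 0 to 1 members, the highest of each without SIRT5F101L replicate 1. The cause was not tested.

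Near 0 the sign between the plasmids changed with the libraries left out. Cnmd ranged from -0.18 to 0.23, Cilp from -0.33 to 0.18 and Matn2 from -0.05 to 0.079 over these. Cnmd turned to -0.081 without WT replicate 3, -0.07 without SIRT5F101L replicate 1 and -0.18 without SIRT5F101L replicate 2, Cilp to 0.06 without WT replicate 4 and 0.18 without SIRT5F101L replicate 3, and Matn2 to -0.049 without SIRT5F101L replicate 2. Sirt5 in SIRT5F101L against Control turned to -0.011 with upper-quartile scaling, -0.11 without Control replicate 3 and -0.31 without SIRT5F101L replicate 2. Alternatives for the pathway lists and their genes were chosen after seeing the data. No paired analysis was possible because the labels give no replicate numbers, and those used here follow accession order and only name libraries. Between the plasmids Cilp has no value in the fit of 8 libraries, where it missed the filter on low counts, and Cilp, Matn1 and Snorc have no adjusted p by DESeq2. Depth limits Cilp, Matn1 and Snorc, which had at most 19 counts in any plasmid library.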

Other observations

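In Control, replicate 2 held the lowest CPM of the 4 libraries for 6 of the 10 genes and the highest for 1, and Control replicate 3 held the lowest for none. In WT, replicate 1 held the lowest value for 4 genes, and replicates 2, 3 and 4 for 2 each. In SIRT5F101L, replicate 1 held the highest value for 4 genes and the lowest for 1, while replicates 2, 3 and 4 each held the lowest for 3. Seen as a share of all counts, the 10 genes together took 0.0266% to 0.0294% of a WT library and 0.0236% to 0.0255% of a SIRT5F101L library.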
